A study of Arabidopsis thaliana with 17 samples.

Results

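Aldehyde dehydrogenases oxidise reactive aldehydes to the matching carboxylic acids, with NAD or NADP as the acceptor. In plants the superfamily is split into numbered families with different substrates: family 10 enzymes act on aminoaldehydes from choline and polyamine breakdown, family 6 on an intermediate of valine breakdown, family 2C on the aldehydes that precede ferulic and sinapic acid, and family 11 on glyceraldehyde 3-phosphate. Other members, among them families 3 and 7, are known from salt and drought stress, where they are held to clear aldehydes made when lipids are oxidised.

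The ALDH genes described here were chosen by symbol, as every probe set that names 1 gene whose symbol starts with ALDH and a number. This gave 8 genes, each with 1 probe set, out of 13513 probe sets that name 1 gene and 22746 tested in all. No intensity entered that rule, but the family was picked with earlier results of these intensities known, so the levels below are a description. The TAIR10.1 gene table lists 14 ALDH genes, and the other 6 (ALDH2B4, ALDH2B7, ALDH3H1, ALDH3I1, ALDH5F1 and ALDH12A1) are not analysed here.

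RNA from Arabidopsis thaliana seeds with a globular embryo was measured on 17 ATH1 arrays in 8 groups. All plants had the Ws-0 genotype, were 38 to 46 days old and received no treatment that the labels name. The groups were embryo proper, suspensor (the stalk of the embryo), micropylar, peripheral and chalazal endosperm, chalazal and general seed coat, and whole seed, each cut out by laser, with 2 arrays per group and 3 for chalazal endosperm. The labels call them biological replicates without tying captures to plants, so p-values measure the spread between these arrays and may be too small.

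Levels are array intensities, scaled by the authors, and differences are on the log2(intensity + 31) scale with their SE. An array's background limit, from 49.2 to 144, was the brightest of its 27 controls for bacterial genes that were not added to the RNA, and between 44.5% and 66.0% of probe sets lay above it. A fold against a group with an array not above its limit is a lower bound, written "at least". No fold is given where the brighter side also had an array not above its limit. A gene is called where the adjusted p of the limma fit over all probe sets is under 0.05. Of the marker genes listed, 3 of 9 for embryo (BBM, PHV and YAB3) summed to between 1180 and 1262 on embryo proper arrays, 588 and 879 on suspensor arrays and 58.2 and 468 elsewhere, with YAB3 above background on no array, and 3 of 8 for endosperm (AGL62, IKU2 and MPC) to between 1806 and 9204 on endosperm arrays against 138 to 543 in the embryo parts. The 3 of 8 for seed coat (BAN, DFR and INO) summed to between 19793 and 41201 on seed coat arrays and to between 108 and 2518 in the embryo and endosperm parts. Single markers departed from these sums. IKU2 averaged 5.74 in chalazal endosperm, with no array above background, against 152 in suspensor. MPC averaged 191 in chalazal endosperm and 214 in general seed coat. INO averaged 62.4 in chalazal seed coat, with no array above background, against 129 in chalazal endosperm. PHV averaged 316 in chalazal seed coat and 154 in suspensor. No suspensor marker had a probe set naming it alone in the annotation, so none was measured here. The GAPDH control's 3′ probe set over its 5′ one, a ratio that is higher for shorter RNA, ran from 10.8 to 27.7 in chalazal endosperm, from 10.9 to 22.7 in micropylar endosperm and from 2.88 to 16.5 elsewhere. In such captures, fewer cells of a type and less RNA per cell cannot be told apart.

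**Figure D1:**
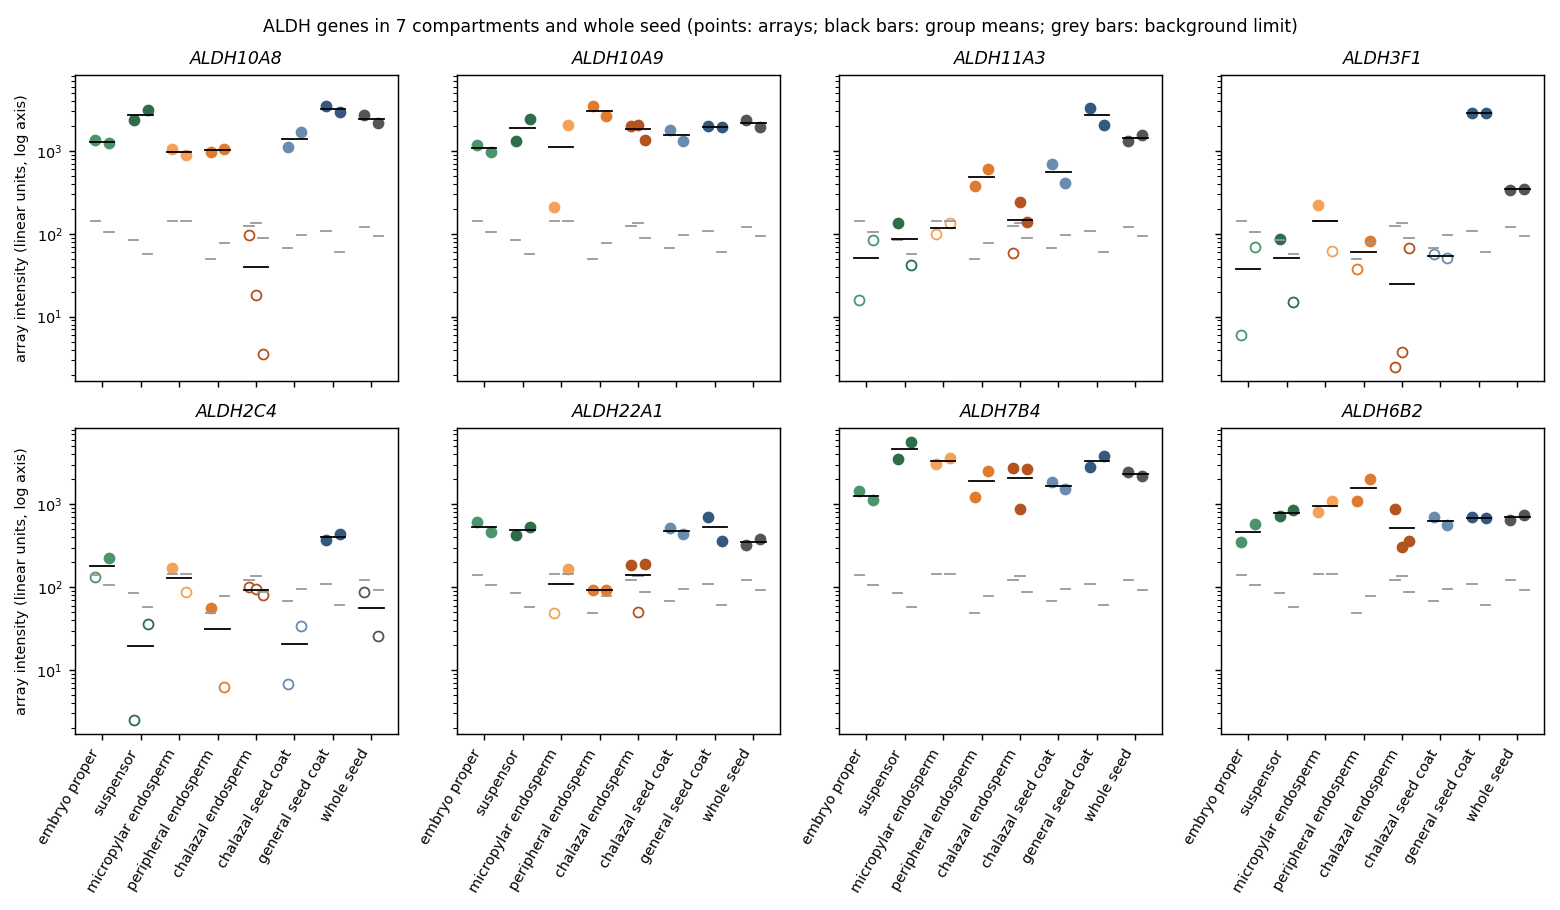
Array intensity (linear units on a log axis) of the 8 ALDH genes by group. Each point is 1 array, open where it is not above the background limit of that array (grey bar), and black bars are group means. ALDH3F1 stood at 2851 or above on both general seed coat arrays and at or below 352 on every other array, and ALDH10A8 was below the limit on the 3 chalazal endosperm arrays alone.

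ALDH10A8 and ALDH10A9 are the betaine aldehyde dehydrogenase relatives of Arabidopsis, the former placed in plastids and the latter in peroxisomes. ALDH10A8 was not detected in chalazal endosperm. It measured 97.9, 18.2 and 3.58 on the chalazal endosperm arrays, none above the limits of 124, 136 and 88.5. In every other group both arrays were above background. It stood at 1056 and 891 in micropylar and at 985 and 1055 in peripheral endosperm, and no chalazal array came near these values. The log2 difference between chalazal and other endosperm was -4.09 ± 0.38 (adjusted p = 2.42e-09), a level at least 8.71-fold lower. The call held in all 25 alternatives run, including those that leave out 1 array. The GAPDH ratios of the chalazal endosperm arrays were 27.7, 16.1 and 10.8, and those of the micropylar endosperm arrays, both with ALDH10A8 above background, were 22.7 and 10.9. The part of RNA length in the ALDH10A8 difference was not tested.

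Elsewhere ALDH10A8 was highest in general seed coat (3533 and 2938) and suspensor (2337 and 3149), whose ranges overlapped. Chalazal seed coat followed at 1127 and 1690.5 and embryo proper at 1350.2 and 1237, and these again overlapped but lay clear of the groups above and below. Peripheral and micropylar endosperm overlapped as well, at 1020.1 ± 49.9 and 973 ± 117 (SD, n = 2). Suspensor lay above embryo proper with no overlap, but the difference of -1.05 ± 0.50 was not called (adjusted p = 0.193), nor was that of -1.20 ± 0.50 between chalazal and general seed coat (adjusted p = 0.181). Whole seed held 2744 and 2173.

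ALDH10A9 was above background on all 17 arrays. It was at 2023, 2070.4 and 1366 in chalazal endosperm, the tissue where ALDH10A8 was not detected. The chalazal difference of ALDH10A9 was 0.31 ± 0.45 (adjusted p = 0.675), though without micropylar endosperm 2 it was 1.09 and called higher (adjusted p = 0.0178). Peripheral endosperm was highest, at 3469 and 2616, above general seed coat at 1976 and 1969 with no overlap. From general seed coat down through suspensor, chalazal endosperm, chalazal seed coat and micropylar endosperm to embryo proper (1196 and 972), each neighbour overlapped the next. The F test over the 7 compartments was not passed by ALDH10A9 (adjusted p = 0.0686), while ALDH10A8 passed it (adjusted p = 1.76e-10). Micropylar endosperm gave 209 on array 1 and 2055 on array 2. Its difference from peripheral endosperm, -2.10 ± 0.59 (adjusted p = 0.0156), rested on array 1: without it the difference was -0.54 (adjusted p = 0.610). The call was also lost without peripheral endosperm 1 or 2 (adjusted p = 0.114 and 0.0525), and the adjusted p over all alternatives ran from 2.51e-05 to 0.610.

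ALDH11A3 is the cytosolic non-phosphorylating glyceraldehyde 3-phosphate dehydrogenase, an enzyme that makes NADPH beside glycolysis. It was highest in the seed coat. General seed coat measured 3345 and 2087, and chalazal seed coat 702 and 412, so these groups did not overlap. The difference was -2.23 ± 0.62 (4.91-fold lower in chalazal seed coat, adjusted p = 0.0241). With no offset it was -2.30, and the call was lost (adjusted p = 0.162). It was lost when any 1 of the 4 arrays was left out, with adjusted p between 0.0643 and 0.262, and the range over all alternatives was 0.00151 to 0.262. Among endosperm parts, peripheral endosperm stood at 376 and 599, overlapping chalazal seed coat. Chalazal endosperm followed at 58.0, 240.3 and 140.2, with 2 of 3 arrays above background, and micropylar endosperm at 100.3 and 134, with none above. Micropylar and peripheral endosperm differed by -1.78 ± 0.62 (adjusted p = 0.0558), a value under the threshold when either embryo proper array or chalazal endosperm 1 or 2 was left out (adjusted p from 0.0375 to 0.0489).

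In the embryo ALDH11A3 was near or below background: 16.1 and 84.6 in embryo proper, neither above the limit, and 133 and 42.2 in suspensor, 1 of 2 above. The embryo parts were at least 11.5-fold below the seed coat parts (log2 difference -3.78 ± 0.44, adjusted p = 1.85e-07), and the 3 endosperm parts at least 5.37-fold below them (-2.43 ± 0.39, adjusted p = 1.49e-05). Both calls held in all 25 alternatives. Embryo was also below endosperm, by -1.35 ± 0.39 (adjusted p = 0.0105), a call lost without embryo proper 1 or suspensor 2 (differences of -1.02 and -1.05). Only 4 of 7 endosperm arrays were above background for ALDH11A3, so no bound on that fold is given. The 3 seed coat markers summed to between 1287 and 1574 on peripheral endosperm arrays and to between 38026 and 41201 on general seed coat arrays. In peripheral endosperm DFR averaged 1228 and BAN 151, each with 2 of 2 arrays above background, and INO 51.2, with none above. The part of seed coat material in the peripheral ALDH11A3 level was not tested. In general seed coat the gene was 5.57-fold above peripheral endosperm. The test for a gene highest in general seed coat against each of the other 6 compartments gave adjusted p = 0.0712, and 0.0445 without chalazal endosperm 1.

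ALDH3F1 belongs to family 3, whose members act on medium- and long-chain aldehydes. It measured 2851 and 2869.9 in general seed coat. The next compartment, micropylar endosperm, gave 226 and 62.5, with 1 of 2 arrays above background, so that general seed coat stood apart by at least 15.9-fold. The remaining compartments lay between 2.47 and 87.0, with 1 array above background in suspensor and 1 in peripheral endosperm and none in embryo proper, chalazal endosperm or chalazal seed coat. From micropylar endosperm down, every neighbour in the order overlapped the next. The chalazal part of the same seed coat measured 56.3 and 50.6, at least 35.4-fold lower (log2 difference -5.10 ± 0.72, adjusted p = 1.62e-05). Whole seed stood at 337 and 352, above background on both arrays and 8.30-fold below general seed coat.

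ALDH3F1 was the only ALDH gene called highest in 1 compartment, general seed coat (adjusted p = 0.000655), against 5.48% of all probe sets called highest in any compartment and 0.791% in general seed coat. Leaving out 1 array at a time gave adjusted p from 0.000532 to 0.0349. With no offset the call was lost (adjusted p = 0.485). Between chalazal and other endosperm the gene differed by -1.27 ± 0.55 (adjusted p = 0.0923), under the threshold without micropylar endosperm 2 or chalazal endosperm 3 (adjusted p = 0.0396 and 0.0284), with quantile normalization (-1.52, adjusted p = 0.0456) and with no offset (-3.25, adjusted p = 0.0369). The gene was also lower in embryo than in seed coat (-2.88 ± 0.51, adjusted p = 8.55e-05) and in endosperm than in seed coat (-2.50 ± 0.45, adjusted p = 7.36e-05). In both comparisons the seed coat side was above background in its general part alone, and chalazal seed coat had no array above background.

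ALDH7B4, the plant antiquitin, is known from induction by dehydration and salt. It was above background on all 17 arrays, and its levels differed among the compartments (F test, adjusted p = 0.0111). Suspensor was highest at 3551 and 5685, followed by micropylar endosperm at 3032 and 3678 and general seed coat at 2848 and 3813, each overlapping the next. Chalazal endosperm gave 2729, 885 and 2662, with array 2 apart from the others. Peripheral endosperm (1241 and 2554) and chalazal seed coat (1839 and 1517) overlapped, and embryo proper was lowest at 1435 and 1113, below chalazal seed coat without overlap. There was also no overlap between general seed coat and chalazal endosperm. Embryo proper was 3.55-fold below suspensor (-1.80 ± 0.47, adjusted p = 0.00853). That call was lost without embryo proper 2 (adjusted p = 0.0902) or suspensor 2 (0.144), within a range of 0.00169 to 0.144 over all alternatives. None of the other 7 comparisons was called for ALDH7B4.

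ALDH2C4, also named REF1, oxidises coniferaldehyde and sinapaldehyde to ferulic and sinapic acid. It was a dim gene, above background on 5 of 17 arrays. General seed coat measured 375 and 433, both above the limit. Embryo proper gave 134 and 224, and micropylar endosperm 172 and 87.1, each with 1 of 2 arrays above background. Chalazal endosperm lay at 100.5, 95.6 and 81.0, chalazal seed coat at 6.77 and 34.4 and suspensor at 2.49 and 36.3, with no array of these above background. Peripheral endosperm gave 56.6 and 6.18, with 1 array above. General seed coat did not overlap embryo proper, the next in order.

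Chalazal seed coat was at least 4.98-fold below general seed coat for ALDH2C4 (-3.13 ± 0.66, adjusted p = 0.00234). With no offset the difference was -4.72 and not called (adjusted p = 0.0575). The call was lost without chalazal seed coat 1 (adjusted p = 0.0664), within a range of 0.000239 to 0.0664. Embryo proper was above suspensor (2.11 ± 0.66, adjusted p = 0.0318). That difference was not called with no offset (4.19, adjusted p = 0.0562) or in a fit of only the arrays compared (adjusted p = 0.0725). Without any 1 of the 4 embryo arrays this was no longer called (adjusted p from 0.0506 to 0.310, over a range of 0.0179 to 0.310), and 1 of the 2 embryo proper arrays was itself below its limit. Whole seed, at 86.4 and 26.1, had neither array above background.

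ALDH6B2 is methylmalonate semialdehyde dehydrogenase, the mitochondrial enzyme of valine breakdown. It was above background on all 17 arrays and had the smallest spread of the 8 genes, 1.67 on the log2 scale between the highest and the lowest compartment mean. Peripheral endosperm stood at 1086 and 2025, micropylar endosperm at 814 and 1107 and suspensor at 722 and 844. General seed coat was at 695 and 683, chalazal seed coat at 700.0 and 557, and embryo proper at 346 and 573. Chalazal endosperm gave 891, 304 and 362, with array 1 apart from the others. The only break without overlap in the order of compartments was between suspensor and general seed coat. Chalazal endosperm was 2.57-fold below the other endosperm (-1.30 ± 0.39, adjusted p = 0.0121), a call lost without peripheral endosperm 2, chalazal endosperm 2 or chalazal endosperm 3 (0.0647, 0.0774 and 0.0566), over a range of 0.00140 to 0.0774. The F test over compartments gave adjusted p = 0.0516.

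ALDH22A1 is the single member of a family found in plants, and its substrate is little known. It split endosperm from the rest. Embryo proper (614 and 460.2), general seed coat (700.3 and 361), suspensor (430 and 539) and chalazal seed coat (513 and 436) overlapped one another in order. All 7 endosperm arrays lay below these: 184, 49.7 and 192 in chalazal, 49.2 and 166 in micropylar and 92.2 and 93.0 in peripheral endosperm, with 5 of 7 above background. Embryo was at least 3.77-fold above endosperm (2.00 ± 0.38, adjusted p = 0.000209), and endosperm at least 3.63-fold below seed coat (-1.95 ± 0.38, adjusted p = 0.000201). Both calls held in all 25 alternatives, with adjusted p up to 0.00301 and 0.00468. Between embryo and seed coat the difference was 0.05 ± 0.43 (adjusted p = 0.962). GAPDH ratios ran from 6.37 to 27.7 in endosperm and from 4.67 to 7.73 in seed coat. They ran from 5.45 to 7.10 in suspensor and from 8.38 to 16.5 in embryo proper. What share RNA length has in this split was not tested.

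**Figure D2:**
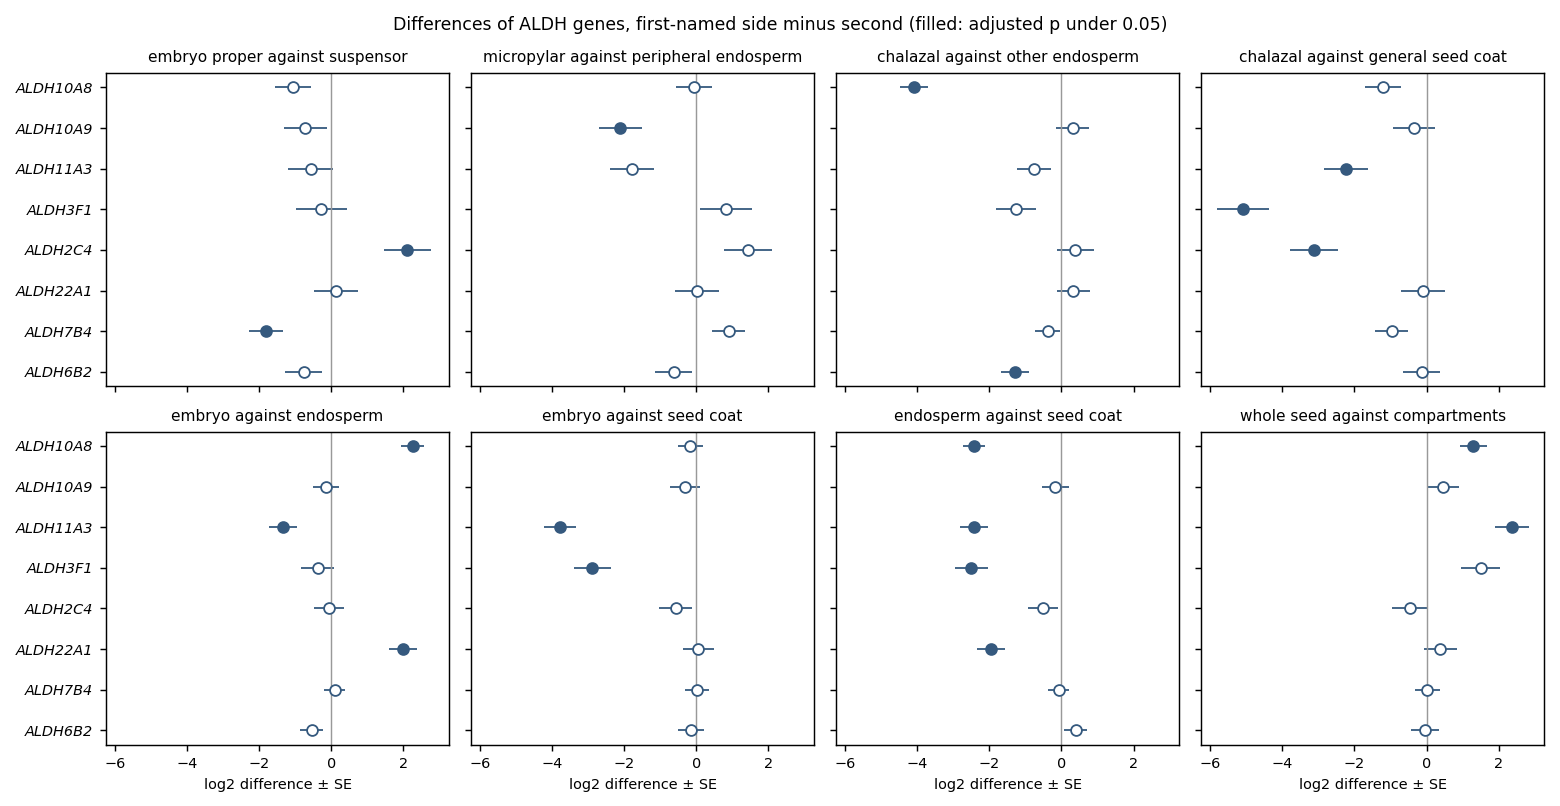
Log2 differences (first-named side minus second, ± SE) of the 8 ALDH genes in the 8 comparisons, with filled points where the adjusted p is under 0.05. The ALDH3F1 point at -5.10 for chalazal against general seed coat and the ALDH10A8 point at -4.09 for chalazal against other endosperm lie farthest from 0.

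Counted over the family, the F test called 6 of 8 genes as differing among the 7 compartments, against 54.1% of all probe sets. Seed coat was the side most often higher. Endosperm was lower than seed coat for 4 of 8 genes (ALDH10A8, ALDH11A3, ALDH22A1 and ALDH3F1) and higher for none, against 19.9% and 11.8% of all probe sets, with a median difference of -1.23 over the 8 genes and -0.06 over all probe sets. ALDH3F1 was above background in general seed coat and on neither chalazal seed coat array, and ALDH11A3 in chalazal seed coat overlapped peripheral endosperm. For ALDH10A8 chalazal endosperm was the only endosperm part below background. Micropylar and peripheral endosperm averaged 973 and 1020, against 1409 in chalazal and 3235 in general seed coat. Embryo was lower than seed coat for 2 (ALDH11A3 and ALDH3F1) and higher for none, against 13.6% and 10.1%, with medians of -0.24 and -0.10. Chalazal seed coat was lower than general seed coat for 3 (ALDH11A3, ALDH2C4 and ALDH3F1) and higher for none, against 3.53% and 3.44%, with medians of -1.09 and -0.05. These comparisons share seed coat arrays, so their counts are not independent of each other. The overall balance of endosperm and seed coat moved with the scaling: 37.1% of all calls were higher in endosperm with the values as scaled and 59.3% after a shift to a common 75th percentile, while the same 4 ALDH genes were called lower under both.

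Within the embryo, 1 of 8 genes (ALDH2C4) was higher and 1 (ALDH7B4) lower in embryo proper than in suspensor, against 5.66% and 7.44% of all probe sets, with medians of -0.65 and 0.02. Between embryo and endosperm, ALDH10A8 and ALDH22A1 were higher in embryo and ALDH11A3 lower, 2 and 1 of 8 against 15.5% and 11.0%, with medians of -0.10 and -0.03. The ALDH10A8 difference (2.26 ± 0.31, adjusted p = 2.87e-06) is from a mean over 3 endosperm parts of which chalazal endosperm alone was below background. Micropylar endosperm was lower than peripheral endosperm for 1 gene (ALDH10A9) and higher for none, against 6.94% and 6.45%, with medians of -0.02 and 0.08. Chalazal endosperm was lower than the other endosperm for 2 (ALDH10A8 and ALDH6B2) and higher for none, against 15.0% and 11.3%, with medians of -0.58 and 0.00.

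Whole seed was higher than the mean of the 7 compartments for 2 of 8 genes, ALDH10A8 (1.29 ± 0.38, adjusted p = 0.0196) and ALDH11A3 (2.37 ± 0.47, adjusted p = 0.000689), and lower for none, against 9.05% and 3.96% of all probe sets, with medians of 0.42 and 0.09. For ALDH11A3 whole seed, at 1308 and 1570.3, lay between general and chalazal seed coat without overlapping either. With no offset or a common 75th percentile the ALDH10A8 difference was not called (adjusted p = 0.164 and 0.0586). The ALDH10A8 call was lost without whole seed 1 or 2 (adjusted p = 0.330 and 0.129, range 0.00274 to 0.330). For ALDH3F1 whole seed was not called (adjusted p = 0.0688), but was under the threshold without embryo proper 2, micropylar endosperm 1 or chalazal endosperm 3 (adjusted p from 0.0419 to 0.0498) and with the filter on dim probe sets (0.0453). The whole seed mean of every one of the 8 genes lay between its lowest and its highest compartment mean.

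The step from chalazal to other tissue was compared between endosperm and seed coat, a test added after the values were seen. The difference of the 2 differences was called for 3 of 8 genes: higher for ALDH3F1 (3.83 ± 0.90, adjusted p = 0.00435) and ALDH2C4 (3.51 ± 0.83, adjusted p = 0.00432) and lower for ALDH10A8 (-2.88 ± 0.63, adjusted p = 0.00215), against 6.39% and 7.32% of all probe sets. The chalazal differences of ALDH3F1 and ALDH2C4 in seed coat were -5.10 and -3.13, and those in endosperm -1.27 ± 0.55 and 0.39 ± 0.50 and not called. For ALDH10A8 the endosperm difference was -4.09, and the seed coat difference was the -1.20 ± 0.50 given above.

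**Figure D3:**
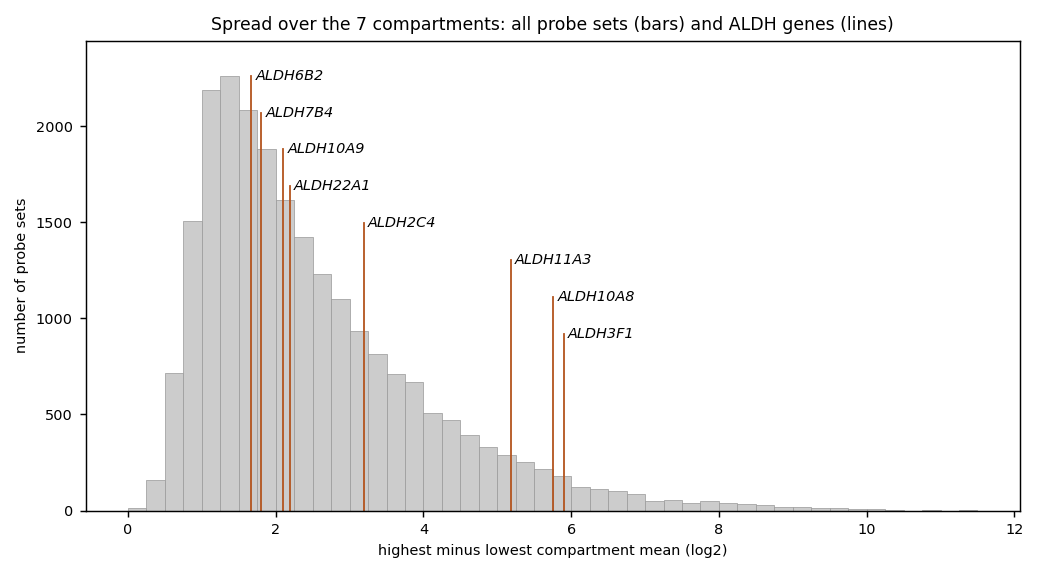
Distribution over all 22746 probe sets of the spread across compartments, the highest minus the lowest compartment mean on the log2 scale, with the 8 ALDH genes as lines. ALDH3F1 (5.90), ALDH10A8 (5.75) and ALDH11A3 (5.18) lie in the upper tail, and ALDH6B2 (1.67) and ALDH7B4 (1.80) below the median of 2.08. The lowest compartment of ALDH3F1, ALDH10A8, ALDH11A3 and ALDH2C4 had no array above background.

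The spread across compartments divided the family. It was 5.90 for ALDH3F1, 5.75 for ALDH10A8 and 5.18 for ALDH11A3, larger than in 96.2%, 95.7% and 93.3% of all probe sets. The spread was 3.19 for ALDH2C4, 2.19 for ALDH22A1 and 2.10 for ALDH10A9. No array was above background in the lowest compartment of ALDH3F1 and ALDH10A8 (chalazal endosperm), ALDH11A3 (embryo proper) and ALDH2C4 (suspensor). The spreads of these genes thus rest in part on values below the limit and on the offset. ALDH7B4 at 1.80 and ALDH6B2 at 1.67 were below the median of 2.08 over all probe sets. The median over the 8 genes was 2.69. The members did not vary as one: over the 17 arrays their pairwise Pearson r, as a description, ran from -0.31 for ALDH2C4 and ALDH6B2 to 0.79 for ALDH11A3 and ALDH3F1, both high in general seed coat. The family 10 genes, ALDH10A8 and ALDH10A9, had r = 0.02.

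Likeness to a member was looked for among 6151 probe sets naming 1 gene. These had a highest group mean above the median of that value over all probe sets. Of these, the other genes with the pattern most like a member were taken by Pearson r over the 17 arrays. For ALDH3F1 they were AT5G51950 (r = 0.95), AT5G02580 (0.94) and AT5G53100 (0.92), at 8130.2, 1811 and 1591 in general seed coat. For ALDH11A3 they were AT1G05540 (0.94), AT2G32790 (0.92) and AT3G05100 (0.92). For ALDH10A8 they were AT5G58490 (0.94), AT3G59300 (0.93) and AT5G53140 (0.93), the last at 4615 in embryo proper and 258 in chalazal endosperm. For ALDH22A1 they were AT5G41620 (0.92), AT4G17960 (0.91) and AT4G31170 (0.91), and for ALDH6B2 the nearest was TAPX, a thylakoid ascorbate peroxidase (0.88). The nearest genes of ALDH10A9, ALDH7B4 and ALDH2C4 reached 0.84, 0.79 and 0.73. Arrays of a group share their tissue, so these values describe the arrays and are not counted as 17 separate tissues.

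Few genes of pathways that meet the ALDH enzymes had a probe set naming them alone in the annotation used. It left 8730 of 22746 probe sets unnamed, so a listed gene not measured here may still be on the array. Of 14 genes listed for branched chain amino acid breakdown, 4 were measured: BCAT4, IVD, MCCA and MCCB. The list is not limited to valine breakdown, so its counts do not measure the route of ALDH6B2. In chalazal endosperm 3 of these 4 were lower than in the other endosperm and none higher, against 15.0% and 11.3% of all probe sets. IVD, isovaleryl-CoA dehydrogenase, measured 8.36 ± 0.821 (SD, n = 3), with no array above background, against micropylar endosperm at 262 ± 123 and peripheral endosperm at 344 ± 131 (SD, n = 2; -3.02 ± 0.44, adjusted p = 4.18e-06). MCCA, a subunit of methylcrotonyl-CoA carboxylase, stood at 578 ± 124 in chalazal against 3293 ± 1336 and 1858 ± 50.8, and MCCB, the other subunit, differed by -1.14 ± 0.42 (adjusted p = 0.0442). MCCB averaged 173 in chalazal endosperm, with 2 of 3 arrays above background, 239 in micropylar and 496 in peripheral endosperm. Its chalazal range of 35.0 to 243 overlapped the micropylar one of 215 to 263. IVD and MCCA were also lower in embryo proper than in suspensor (2 of 4, against 7.44% of all probe sets, and none higher, against 5.66%), with IVD at 201 ± 129 against 1154 ± 2.40 (SD, n = 2).

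Of 13 genes for aldehyde reductases and the glyoxalase route, which remove aldehydes by other reactions, 6 were measured. AER, an alkenal reductase, was highest in peripheral endosperm at 2460 ± 56.5 and stood at 1619 ± 735 in micropylar endosperm, against 111 ± 30.2 in general seed coat and 33.2 ± 39.3, not above background, in the chalazal part (SD, n = 2). Endosperm exceeded seed coat for AER by 3.70 ± 0.36 (adjusted p = 5.07e-09), the opposite side to the 4 ALDH genes called there. Of the 6, 2 were higher in endosperm, 1 lower and 3 not called, against 11.8% higher and 19.9% lower over all probe sets. No measured gene of the other lists was called higher in endosperm than in seed coat. Called lower were 2 of 4 for branched chain breakdown, 1 of 2 for fermentation and acetate, 2 of 2 phenylpropanoid genes and the 1 glyceraldehyde 3-phosphate dehydrogenase. In chalazal endosperm 3 of the 6 were lower than in the other endosperm (AER, AOR and GLY2) and none higher, against 15.0% and 11.3% of all probe sets. Of 7 genes for fermentation and acetate, PDC2 and ACS were measured and both were lower in chalazal endosperm, again against 15.0% of all probe sets (-1.31 ± 0.42 and -2.06 ± 0.42, adjusted p = 0.0214 and 0.000374). Of 23 phenylpropanoid genes, HCT and CCR2 were measured. HCT, which acts before the aldehydes that ALDH2C4 oxidises, measured 2803 ± 91.7 in general seed coat, 1343 ± 344 in the chalazal part and at most 285 ± 80.0, in suspensor, as the mean of an embryo or endosperm part (SD, n = 2); its difference between the seed coat parts was not called (adjusted p = 0.255). CCR2, a cinnamoyl-CoA reductase, was called higher in chalazal than in general seed coat (1.68 ± 0.46, adjusted p = 0.0227), with 86.2 ± 36.2 and 1 of 2 arrays above background against 4.84 ± 4.21 and none above (SD, n = 2). GAPC2, a phosphorylating glyceraldehyde 3-phosphate dehydrogenase, was the 1 gene measured of 8; it was 562 ± 203 (SD, n = 3) in chalazal endosperm against 2002 ± 593 in micropylar endosperm and 4457 ± 1283 in the peripheral part (SD, n = 2), and differed from the other endosperm by -2.37 ± 0.28 (adjusted p = 1.97e-07). None of the 8 proline, 9 GABA shunt and 3 choline genes listed had a probe set naming it alone in the annotation. GAPDH ratios ran from 10.8 to 27.7 in chalazal endosperm. The part of RNA length in the chalazal differences of the listed genes was not tested. Calls of listed genes were not rerun in the alternatives.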

How the data were processed

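Per the labels, compartments were cut from sections of fixed seeds in paraffin, and a few nanograms of RNA per sample were amplified before labelling. The deposited values are linear intensities of probe sets. From the values, the authors scaled each array, since its mean after trimming 2% at both ends lay near 500.1. GCOS is named per the submitters' processing notes, with neither version nor algorithm. Of 22810 probe sets, 64 controls were left out. With limma 3.58.1 (R 4.3.3), 1 mean for each group was fitted to the log2(intensity + 31) values of all 17 arrays (eBayes with intensity trend, 9 residual degrees of freedom, two-sided tests, Benjamini-Hochberg adjustment over 22746 probe sets, threshold 0.05). The offset is the median of the array medians divided by 4, so differences of dim genes are understated. Whether a gene was highest in a compartment was tested by the largest of its one-sided p-values against the other 6. Folds are ratios of geometric means: arrays of the lower side stood at the higher of their value and their limit, and arrays of the higher side at their own value. The number of arrays limits the precision. Names came from the platform's annotation, and all 8 members matched a current name of TAIR10.1. No coordinates are given because the files name no build.

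The members, gene lists and tests were chosen with earlier results of these data known. Every member is described; the likeness rule took the 3 genes of highest r, and listed pathway genes were named among the called ones of largest difference, with HCT and CCR2 levels added after their values were seen. Alternatives were no offset, an offset of 124, quantile normalization, a shift of arrays to a common 75th percentile, a dim probe set filter (which all 8 members pass), no intensity trend, only the arrays compared, the replicate number as a block, and leaving out each array. Same-numbered arrays of different groups did not deviate together (r between -0.09 and 0.09 in 56 pairs, 0 of them over 0.1), so the numbers are not taken to pair them. The comparison of the chalazal step was added after the values were seen. The fit was tested on simulated data.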

Additional observations from a re-analysis of the deposited data

Results flagged for a closer look

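For 3 genes the chalazal difference in endosperm differed from that in seed coat by the test of the difference itself. The endosperm step minus the seed coat step was 3.83 ± 0.90 for ALDH3F1, 3.51 ± 0.83 for ALDH2C4 and -2.88 ± 0.63 for ALDH10A8 (adjusted p = 0.00435, 0.00432 and 0.00215, limma over 22746 probe sets). For ALDH3F1 and ALDH2C4 the values of chalazal and other endosperm were mostly below background, so the size of their endosperm step is not well measured. The ALDH3F1 value was 2.49 with no offset and no longer called (adjusted p = 0.472, against a range of 1.17e-05 to 0.472 over all alternatives). No group held enough arrays for a test of single outlying arrays.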

How the results depend on the processing

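Of 72 comparisons of a member, 22 were called, 15 of these in all 8 alternatives that keep every array and 14 in all 17 that leave out 1, and no called difference changed sign. Counts of called members moved by over 1.5 times in these cases. With no offset, 1 gene was called in place of 2 between embryo proper and suspensor, 1 in place of 3 between the seed coat parts, 1 in place of 2 for whole seed, and 0 in place of 1 as highest in a compartment. Quantile normalization and an offset of 124 each called 2 as highest, ALDH11A3 being the other (adjusted p = 0.0440 and 0.00309). A common 75th percentile called 1 for whole seed. For micropylar against peripheral endosperm the count of 1 became 2 with the larger offset or the filter, and 0 without the intensity trend or in a fit of only the arrays compared, which also called 1 between embryo proper and suspensor. Leaving out 1 array gave counts from 5 to 7 for the F test, 0 to 2 for embryo proper against suspensor, 0 to 2 for micropylar against peripheral endosperm, 1 to 4 for chalazal against other endosperm (4 without micropylar endosperm 2, 1 without peripheral endosperm 2 or chalazal endosperm 2), 1 to 3 between the seed coat parts, 2 to 3 for embryo against endosperm, 1 to 3 for whole seed and 1 to 2 for highest, and kept 2, 4 and 3 for embryo against seed coat, endosperm against seed coat and the chalazal step.

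The replicate number as a block gave 6 genes for the F test, 3 for embryo against endosperm and 3 for whole seed. Only chalazal endosperm has a replicate 3, which the block removes from the comparison. The block ended the ALDH6B2 call in chalazal endosperm (-1.13, adjusted p = 0.0649) and added ALDH3F1 there (-1.78, adjusted p = 0.0325) and in whole seed (1.57, adjusted p = 0.0487), and changed no other call of a member. Against the values as scaled, a common 75th percentile moved the median over all probe sets by up to 0.38, in endosperm against seed coat. The share of calls that were higher became 54.4% in place of 43.0% for chalazal against other endosperm, 44.2% in place of 58.5% for embryo against endosperm, 53.1% in place of 42.7% for embryo against seed coat and 56.0% in place of 69.6% for whole seed; quantile normalization gave 48.2% in place of 37.1% for endosperm against seed coat. Of 128 group levels under another scaling, 28 moved by over 1 SD, by ratios within 0.685 and 1.52. Levels below the background limit have no order.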
